A study of Mus musculus with 6 samples.

Results

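Integrins are the cell-surface receptors through which microglia, the resident macrophages of the brain, hold on to other cells and to the extracellular matrix. The 10 subunit genes described here, 7 alpha (Itgam, Itgal, Itgax, Itga4, Itga5, Itga6 and Itgav) and 3 beta (Itgb1, Itgb2 and Itgb5), were chosen by name as integrins of microglia, out of 24411 genes in the count tables. All 10 were found and had enough reads to be tested. They were measured in 6 strand-specific, rRNA-depleted RNA-seq libraries of cultured primary microglia from neonatal ICR mice. In 3 libraries the cells had received FTY720 (fingolimod, a sphingosine analogue) at 1 µM for 4 h, and in the other 3 the same dose of FTY720 and, with it, 10 ng/ml of LPS (lipopolysaccharide, the bacterial ligand of Toll-like receptor 4) for 4 h. FTY720 was present in both groups, so the comparison shows what LPS added to FTY720 and nothing about FTY720 itself. Per the labels' protocols, brains of 12 mice aged 3 days were pooled, microglia were shaken off mixed glial flasks, and more than 92% of the cells stained for CD11b, the protein encoded by Itgam itself. The labels call the RNA samples independent but do not tie them to separate cultures or animals, so p-values measure the spread between these RNA samples.

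Each integrin is a pair of 1 alpha and 1 beta chain, and a chain leaves the endoplasmic reticulum only with a partner. Itgb2 (CD18), found on white blood cells, pairs with Itgam (CD11b, the Mac-1 or complement receptor 3 chain), Itgal (CD11a, LFA-1) and Itgax (CD11c, complement receptor 4). Itgb1 pairs with many alpha chains, among them Itga4 (VLA-4), Itga5 (the fibronectin receptor), Itga6 (a laminin receptor) and Itgav. Itgav also pairs with Itgb5 in a receptor for vitronectin that takes part in the uptake of dying cells. Cells switch integrins on from inside through talin and kindlin, which bind the beta tail, and signal onward through tyrosine kinases of the Src, Syk and focal adhesion kinase families.

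Gene reads per library ranged from 2431775 to 3454647, and 28.8% to 59.0% of them fell on 3 genes with rRNA-like sequence (Rn45s, Lars2 and Mir6236). FTY720 replicate 3 had the lowest such share and lay furthest from the other libraries of its group (chi-square per degree of freedom over genes 3.84 and 4.88, against 1.34 between FTY720 replicates 1 and 2). Members had between 161 and 5312 reads summed over the FTY720 libraries and between 224 and 5345 with LPS added. Microglia markers were present: of 11 listed, 7 were tested and 6 of them were higher with LPS, and their summed level was 1516 to 1716 CPM with FTY720 and 2358 to 2624 CPM with LPS. CPM is the read count of a gene relative to all gene reads of its library, scaled between libraries with TMM factors. Lymphocyte markers summed to 2.59 to 4.34 CPM with FTY720 and 4.10 to 8.04 CPM with LPS, with Cd3g, Nkg7 and Cd2 among those at 0 reads in all libraries. Several marker lists of other cell types stood higher with LPS, as the integrins did. Neutrophil and monocyte markers went from 0.668 to 3.77 CPM to 6.35 to 10.0 CPM, with S100a9, Ly6c2 and Ngp at 0. The only one tested, S100a8, was called higher (2.23-fold, edgeR adjusted p = 0.0418), a call lost in 9 of 14 alternatives, among them DESeq2 (0.108) and edgeR without FTY720 replicate 1 (0.140) or 2 (0.144) or FTY720_LPS replicate 1 (0.0711), 2 (0.102) or 3 (0.106). Border macrophage markers went from 70.2 to 77.5 CPM to 110 to 140 CPM, with 2 of 2 tested higher, Mrc1 1.63-fold and Pf4 2.19-fold, both lost with the total-read scalings. Endothelial markers went from 5.01 to 10.0 CPM to 13.1 to 17.02 CPM, and the only one tested, Cdh5, rose 3.07-fold. Astrocyte markers overlapped between groups (88.1 to 107 CPM and 103 to 143 CPM). Of 6 tested, 2 were called higher, Gja1 2.32-fold and Aqp4 2.04-fold, and 1 was called lower, Slc1a2 2.46-fold. Fibroblast and mural markers overlapped too (53.4 to 86.1 CPM and 61.8 to 93.6 CPM), and of 5 tested, 2 were higher at unadjusted p under 0.05 in edgeR and 0 after adjustment. Oligodendrocyte-lineage markers (268 to 293 CPM, falling to 142 to 163 CPM; 5 of 6 tested lower) and neuron markers (180 to 241 CPM, falling to 97.6 to 110 CPM; 3 of 3 tested lower) were lower with LPS. The part of these cells in the integrin values was not tested, and in bulk RNA fewer cells of a type and less RNA per cell cannot be told apart.

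LPS raised 7 of the 10 subunits and lowered none (0) at adjusted p under 0.05 in edgeR's quasi-likelihood test. Over all 10124 genes tested with edgeR, 23.3% were called higher and 22.7% lower, and 46.0% in either direction. Itga5 and Itgav rose about as much as each other, 4.01-fold and 3.97-fold, Itgax, Itga6 and Itgam rose 2.01-fold, 1.93-fold and 1.75-fold, and the beta chains Itgb1 and Itgb2 rose 1.496-fold and 1.44-fold. Itga4, Itgal and Itgb5 did not pass the test. At least 2-fold higher and called were 3 of 10 members, against 8.49% of all genes, and at least 2-fold lower and called were 0, against 9.59%. The CPM ranges of the groups did not overlap for 8 of 10, all higher with LPS, against 54.0% of all genes in either direction (27.1% higher and 26.9% lower). The median log2 fold change of the members was 0.70, and that of all tested genes -0.04.

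How far the smaller rises reach depends on how libraries are scaled and on expression level. Members had mean log2 CPM of 4.52 to 9.27, and the median log2 fold change of all genes went up with level. It was -0.08 between 4 and 5 log2 CPM, where Itgax lies, 0.09 between 5 and 6 (Itgal) and 0.26 between 6 and 7 (Itga4 and Itga5). It was 0.50 in 418 genes between 7 and 8, where Itgam, Itga6, Itgav, Itgb2 and Itgb5 lie, and 0.68 in 242 genes above 8 (Itgb1). Against TMM factors, the median of all genes moved by -0.13 with upper-quartile factors, by -0.32 with total gene reads alone and by -0.44 with total gene reads without the rRNA-like genes, and the share of calls that were higher went from 50.7% to 38.8%, 22.2% and 17.7%. Itga5 and Itgav were called higher under all 14 alternatives tried. With total gene reads alone they were the only 2 members called. Itgb1 and Itgb2 lost their call with both total-read scalings and with the expression trend removed. Itgb1 then stood at -0.17 (adjusted p = 0.212, limma), while Itgb5 turned to a call in the lower direction (-0.52, adjusted p = 0.00135, limma). Relative to the median of all genes in the same setting, Itga5 lay between 1.69 and 2.14 above it and Itgav between 1.45 and 2.10, whereas Itgb1 lay between -0.11 and 0.76.

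**Figure D1:**
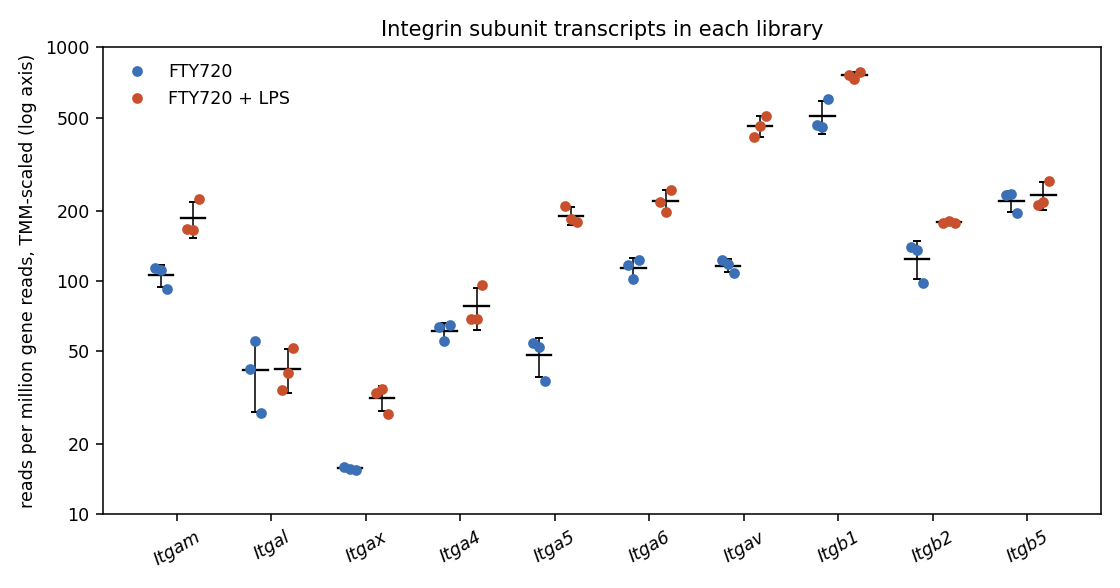
Level of each subunit in CPM (TMM-scaled, log axis) in every library, FTY720 in blue and FTY720 with LPS in red; bars give the mean and SD of 3 libraries. The groups are furthest apart for Itga5 and Itgav and overlap for Itgal and Itgb5; those 2 point higher or lower depending on the scaling, as Itga4 does.

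Itgav, the alpha chain of the vitronectin-type receptors, lies on chromosome 2 (83724397 to 83806916, plus strand, GRCm38, the assembly also called mm10). Its level was 122, 118 and 108 CPM in FTY720 replicates 1, 2 and 3 and 415, 459 and 510 CPM with LPS. All 3 LPS libraries stood far above all 3 FTY720 libraries, and the change was larger than the spread within either group (log2 fold change 1.99 ± 0.11, SE, n = 3 per group, edgeR adjusted p = 1.12e-12). Itga5, the alpha chain of the fibronectin receptor (chromosome 15, 103344286 to 103366763, minus strand), stood at 54.4, 52.1 and 37.4 CPM with FTY720 and at 209, 184 and 178 CPM with LPS. The groups again stood apart, with FTY720 replicate 3 the lowest library of all, and the rise was 2.00 ± 0.14 (edgeR adjusted p = 3.98e-11). The microRNA gene Mir6963 lies inside Itga5 on the same strand. In raw reads summed over 3 libraries, Itgav went from 1179 to 3216 and Itga5 from 478 to 1351.

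Itgb5, a beta chain that pairs with Itgav alone, lies on chromosome 16 (33829665 to 33949338, plus strand). It stood at 232, 235 and 194 CPM with FTY720 and at 211, 217 and 269 CPM with LPS. The ranges overlapped, with replicate 3 lowest in one group and highest in the other. Its log2 fold change was 0.07 ± 0.12 (95% interval -0.17 to 0.32, edgeR adjusted p = 0.640), which turned to -0.01 without FTY720 replicate 3 and -0.02 without FTY720_LPS replicate 3. It was called lower with total gene reads without the rRNA-like genes (-0.38, adjusted p = 0.00614) and once the expression trend was removed.

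The promoter windows of these 3 genes are shown because Itga5 and Itgav moved by nearly the same amount while Itgb5, which shares a receptor with Itgav, was not called in the main test. RefSeq windows (GRCm38.p6, 250 bases before to 50 after the transcript start) were at hand for 7 of the 10 members. The sequences run 5′ to 3′ on the gene's strand, and capitals mark matches on either strand to 5 motifs: GAGGAA, the core bound by PU.1 (a myeloid transcription factor), GGGCGG (Sp1 type), TGANTCA (AP-1), the NF-κB consensus and the interferon-stimulated response element (GAAA, any 2 bases, GAAA).
Itga5, chr15:103366742-103367041, minus strand: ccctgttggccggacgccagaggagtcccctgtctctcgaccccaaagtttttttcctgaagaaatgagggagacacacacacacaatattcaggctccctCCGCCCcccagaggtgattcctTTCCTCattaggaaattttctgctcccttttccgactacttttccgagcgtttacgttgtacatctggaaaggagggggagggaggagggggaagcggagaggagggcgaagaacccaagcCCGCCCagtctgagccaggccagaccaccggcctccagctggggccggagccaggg
Itgav, chr2:83724147-83724446, plus strand: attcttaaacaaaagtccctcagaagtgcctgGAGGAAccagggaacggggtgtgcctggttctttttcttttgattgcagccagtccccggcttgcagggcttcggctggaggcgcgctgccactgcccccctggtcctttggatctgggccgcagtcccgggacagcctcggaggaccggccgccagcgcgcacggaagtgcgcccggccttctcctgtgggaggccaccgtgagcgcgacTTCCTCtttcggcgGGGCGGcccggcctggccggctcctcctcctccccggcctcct
Itgb5, chr16:33829415-33829714, plus strand: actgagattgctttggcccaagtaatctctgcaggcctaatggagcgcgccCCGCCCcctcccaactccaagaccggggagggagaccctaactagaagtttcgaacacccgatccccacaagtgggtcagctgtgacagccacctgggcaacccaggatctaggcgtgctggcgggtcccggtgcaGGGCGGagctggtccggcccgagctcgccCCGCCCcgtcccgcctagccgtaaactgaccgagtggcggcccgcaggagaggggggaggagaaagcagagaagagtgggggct
Itga5 held 1 GAGGAA match, 127 to 122 bases before the start, and 2 GGGCGG matches. Itgav held 2 GAGGAA matches and 1 GGGCGG match, and Itgb5 held 3 GGGCGG matches and no GAGGAA. Of all 32851 windows of this length in the table, 28.3% hold GAGGAA, 35.7% GGGCGG, 7.81% TGANTCA, 4.51% the NF-κB consensus and 3.44% the interferon-stimulated response element. Of the 7 member windows, 4 held GAGGAA, 6 GGGCGG and 1 TGANTCA. The NF-κB consensus and the interferon-stimulated response element matched in 0 of them. GAGGAA was present in Itgam, Itga5, Itgav and Itgb1 and absent from Itgax, Itga4 and Itgb5. A link between these matches and the changes with LPS was not tested. These are letter matches in short windows, and no binding was measured here.

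Itgb1, the shared beta chain of Itga4, Itga5, Itga6 and Itgav, lies on chromosome 8 (128685654 to 128733200, plus strand). It stood at 467, 454 and 601 CPM with FTY720 and at 763, 732 and 785 CPM with LPS, a log2 fold change of 0.58 ± 0.11 (edgeR adjusted p = 0.000206). The groups did not overlap on this scale, with FTY720 replicate 3 the highest of its group. Raw reads, not scaled for depth, summed to nearly the same, 5312 and 5345. Gene reads per library averaged 3051828 with FTY720 and 2587181 with LPS. With both total-read scalings the call ended (0.22, adjusted p = 0.587, with total gene reads alone; 0.14, adjusted p = 0.197, without the rRNA-like genes), and with the expression trend removed the sign turned.

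Itga6, which with Itgb1 forms a laminin receptor (chromosome 2, 71745616 to 71858416, plus strand), stood at 117, 102 and 123 CPM with FTY720 and at 218, 198 and 246 CPM with LPS. Every LPS library stood above every FTY720 library (0.95 ± 0.12, edgeR adjusted p = 8.23e-07), and of the 14 alternatives the call was lost in 1, total gene reads alone (0.60, adjusted p = 0.0901). Itga4, which with Itgb1 binds Vcam1 and fibronectin (chromosome 2, 79255426 to 79333123, plus strand), stood at 63.4, 55.1 and 64.5 CPM with FTY720 and at 68.6, 68.5 and 96.1 CPM with LPS. Its ranges lay apart by a small gap, with FTY720_LPS replicate 3 well above the others, and it did not pass the test (0.34 ± 0.15, 95% interval 0.04 to 0.64, edgeR adjusted p = 0.0606). Leaving out FTY720 replicate 3 (0.38, adjusted p = 0.0158) or FTY720_LPS replicate 1 (0.45, adjusted p = 0.0371) brought a call, and it stood at -0.0047 with total gene reads alone and -0.11 without the rRNA-like genes. The Itga4 locus overlaps Cerkl on the opposite strand, which strand-specific counts keep apart. They cannot do so for same-strand genes, Gm13663 and Gm13662 at Itga6 and Gm49368 at Itgam. Those genes have no row in the count tables, and their part in the Itga6 and Itgam counts was not tested.

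The leukocyte integrins moved unevenly. Itgb2, the shared beta chain (chromosome 10, 77530252 to 77565708, plus strand), stood at 139, 136 and 97.9 CPM with FTY720 and within a narrow band of 177, 181 and 176 CPM with LPS. The groups did not overlap (0.52 ± 0.13, edgeR adjusted p = 0.00198), FTY720 replicate 3 was the lowest library, and without it the change was 0.37 (adjusted p = 0.000803). The call ended with total gene reads alone (0.23, adjusted p = 0.556), with the rRNA-like genes left out of the total (0.07, adjusted p = 0.642) and in limma after removal of the expression trend (0.05, adjusted p = 0.794).

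Itgam, whose CD11b protein was used to judge the purity of these cultures, stood at 113, 111 and 92.5 CPM with FTY720 and at 167, 165 and 223 CPM with LPS. The LPS libraries were all higher, with FTY720_LPS replicate 3 the highest (0.81 ± 0.13, edgeR adjusted p = 2.69e-05; 0.50, adjusted p = 0.171, with total gene reads alone). Itgax, the CD11c chain often used to mark dendritic cells and activated microglia, stood at 16.0, 15.7 and 15.5 CPM with FTY720 and at 33.2, 34.3 and 27.0 CPM with LPS. It was the scarcest member, its 3 FTY720 libraries were nearly identical, and it rose by 1.01 ± 0.18 (edgeR adjusted p = 9.36e-05; 0.69, adjusted p = 0.0609, with total gene reads alone). Dendritic cell markers summed to 0.334 to 4.01 CPM with FTY720 and 5.22 to 9.01 CPM with LPS, without overlap. Of 5 listed, 1 was tested, Zbtb46, with 20 and 37 reads, and it was called higher too (2.66-fold, 1.41 ± 0.48, edgeR adjusted p = 0.0199). The Zbtb46 call ended with DESeq2 (adjusted p = 0.0551), without the rRNA-like genes (0.0880) and in edgeR without FTY720 replicate 1 (0.105) or FTY720_LPS replicate 3 (0.101). The part of such cells in the Itgax rise was not tested.

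Itgal, the LFA-1 alpha chain that binds Icam1 (chromosome 7, 127296260 to 127335138, plus strand), stood at 42.0, 55.4 and 27.1 CPM with FTY720 and at 33.9, 40.2 and 51.6 CPM with LPS. The libraries of the groups were interleaved (0.02 ± 0.21, 95% interval -0.41 to 0.45, edgeR adjusted p = 0.944), so a change of up to about that size in either direction was not detectable. The value was -0.24 without FTY720 replicate 3 and -0.12 without FTY720_LPS replicate 3.

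Itgam and Itgax are neighbours on chromosome 7 (128062640 to 128118491 and 128129547 to 128150657, both plus strand), and their promoter windows are shown as those of the adjacent leukocyte alpha genes that were both higher with LPS. Capitals mark the same motifs as above.
Itgam, chr7:128062390-128062689, plus strand: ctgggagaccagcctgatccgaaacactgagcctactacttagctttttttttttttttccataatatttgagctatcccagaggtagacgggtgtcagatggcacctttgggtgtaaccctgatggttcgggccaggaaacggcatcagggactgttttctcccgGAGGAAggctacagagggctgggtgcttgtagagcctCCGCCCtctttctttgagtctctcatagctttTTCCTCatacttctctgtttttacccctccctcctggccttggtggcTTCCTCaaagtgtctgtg
Itgax, chr7:128129300-128129599, plus strand: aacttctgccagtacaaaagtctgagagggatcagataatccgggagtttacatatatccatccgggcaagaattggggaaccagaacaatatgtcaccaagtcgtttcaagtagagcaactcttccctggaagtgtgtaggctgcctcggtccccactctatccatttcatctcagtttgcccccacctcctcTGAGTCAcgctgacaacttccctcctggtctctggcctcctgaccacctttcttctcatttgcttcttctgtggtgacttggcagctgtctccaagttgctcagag
Itgam held 3 GAGGAA matches, 84 to 79 bases before the start, 15 to 10 bases before it and just past it, and 1 GGGCGG match. Itgax held 1 TGANTCA match, 56 to 50 bases before the start, the only one among the 7 member windows, and none of the other 4 motifs.

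**Figure D2:**
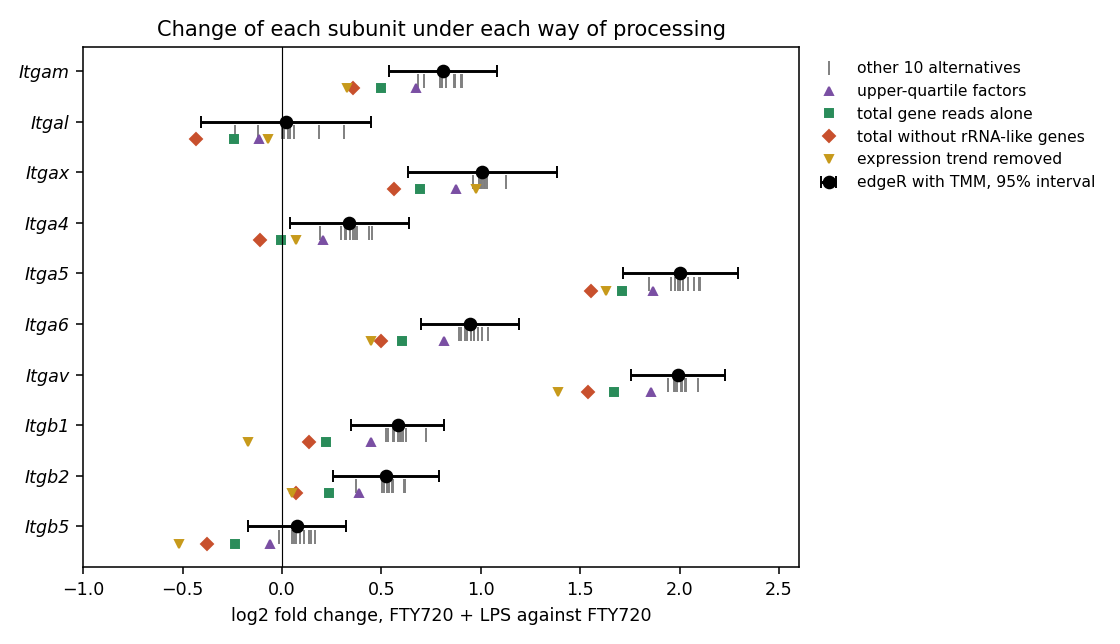
Log2 fold change of each subunit with LPS in edgeR with TMM factors (black, 95% interval), under the 4 alternatives that change scaling or remove the expression trend (coloured) and under the other 10 alternatives (grey ticks). Itga5 and Itgav stay above 1.38 throughout, Itgal, Itga4, Itgb1 and Itgb5 lie on both sides of 0, and the coloured marks sit left of the black ones.

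Ratios of subunits inside a library do not depend on how libraries are scaled to each other, and they were added after the values above were seen. Levels were divided by the merged exon length of GENCODE M21 (RPKM, CPM per kilobase), and an alpha chain was divided by its beta partner. Itgav per Itgb5 was 0.174, 0.166 and 0.184 in the FTY720 libraries and 0.649, 0.700 and 0.628 with LPS, a change of 1.92 on the log2 scale. All LPS libraries were higher, and the libraries within a group lay close together. Itgav per Itgb1 went from 0.0888 ± 0.0178 to 0.230 ± 0.0211 (SD, n = 3), and Itga5 per Itgb1 from 0.0809 ± 0.0255 to 0.207 ± 0.0195. In both pairs no LPS library overlapped an FTY720 library, though FTY720 replicate 3 was well below its group. Itga6 per Itgb1 rose less, from 0.102 ± 0.0105 to 0.131 ± 0.00993, also without overlap. Itga4 per Itgb1 went from 0.0355 ± 0.00416 to 0.0298 ± 0.0052, with overlap. For the Itgb2 partners all 3 ratios overlapped between groups: Itgam per Itgb2 was 0.522 ± 0.0452 and 0.633 ± 0.119, Itgal 0.153 ± 0.0324 and 0.109 ± 0.024, and Itgax 0.0824 ± 0.016 and 0.112 ± 0.0129.

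**Figure D3:**
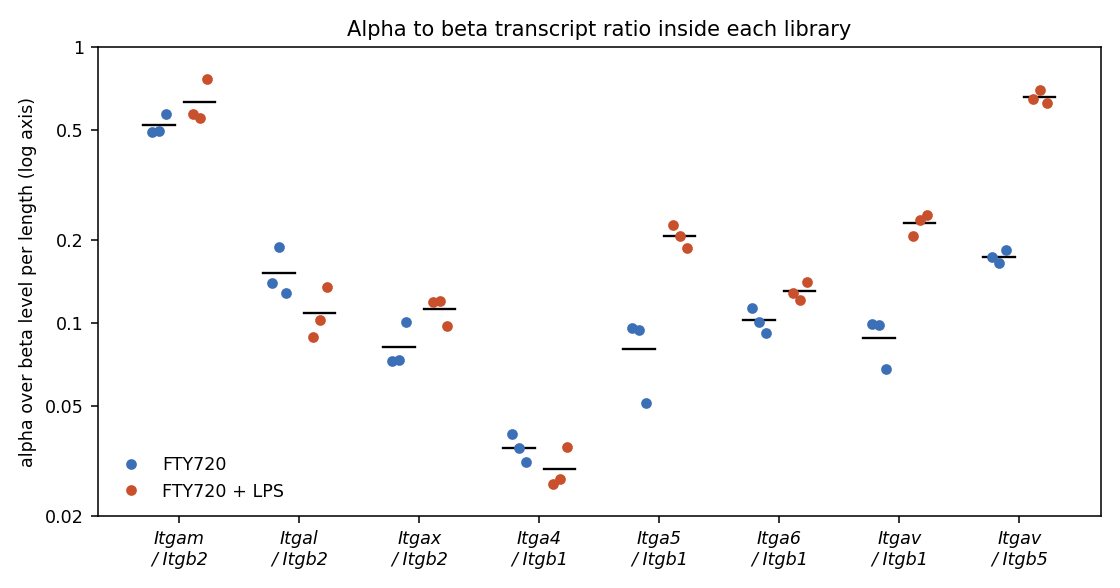
Ratio of each alpha chain to its beta partner, both per exon length, inside each library (log axis), with lines at group means. FTY720 libraries are blue and FTY720 with LPS red; the groups are separate for Itga5, Itga6 and Itgav over Itgb1 and for Itgav over Itgb5, and overlap for the 3 partners of Itgb2 and for Itga4.

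The make-up of the alpha chains shifted within the Itgb1 group. Of the summed RPKM of Itga4, Itga5, Itga6 and Itgav, Itgav held 28.8% ± 0.936 with FTY720 and 38.5% ± 2.93 with LPS (SD, n = 3), and Itga5 25.8% ± 4.09 and 34.7% ± 3.92. Itga6 went from 33.7% ± 3.78 to 21.9% ± 1.31 and Itga4 from 11.6% ± 1.1 to 4.97% ± 0.762. By merged exon length Itga6 thus went from the first to the third of these 4 although its own level rose. With coding length in place of merged exons Itgav already came first with FTY720 (37.1 RPKM, against 34.8 RPKM for Itga6). Itga6 then stayed above Itga5 with LPS (67.3 and 60.3 RPKM), as it did by longest transcript (51.1 and 43.1 RPKM). Within the Itgb2 group Itgam held the largest share throughout, 68.9% ± 3.14 and 73.8% ± 2.76, Itgal went from 20.2% ± 4.49 to 12.7% ± 1.18, and Itgax from 10.8% ± 1.52 to 13.5% ± 3.25. The 3 alpha chains summed to 0.757 ± 0.0481 times Itgb2 with FTY720 and 0.855 ± 0.129 times with LPS, while the 4 others summed to 0.308 ± 0.0563 times Itgb1 and 0.598 ± 0.0121 times.

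In level per merged exon length, the beta chains led in both groups. With FTY720, Itgb1 stood at 124 ± 20 RPKM, Itgb5 at 62.1 ± 6.41, Itgb2 at 40.8 ± 7.54 and Itgam at 21.04 ± 2.29 RPKM (SD, n = 3), each above the next in all libraries. Below them Itga6, Itgav, Itga5, Itgal and Itga4 ran from 12.6 to 4.36 RPKM, where each neighbouring pair overlapped, and Itgax came last at 3.28 ± 0.0511 RPKM. With LPS the order was Itgb1 (186 ± 6.48 RPKM), Itgb5 (65.4 ± 8.93), Itgb2 (58.3 ± 0.869), then Itgav, Itga5 and Itgam between 42.9 and 36.9 RPKM with overlapping neighbours. Itga6 followed at 24.4 ± 2.68 RPKM, and Itgax, Itgal and Itga4 lay at 6.56, 6.38 and 5.56 RPKM, again overlapping. The order depends on the length used, since Itga4, Itgav and Itga6 have long annotated exons outside the coding part (13978, 10744 and 9025 bases merged, against 3096, 3132 and 3273 coding). With coding length Itgb1 stayed first in both groups, but Itgav came second with LPS at 147 RPKM, above Itgb5 at 94.9 RPKM.

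By distance between centred log2 CPM profiles over the 6 libraries, among 8035 other genes of at least 3 log2 CPM, the genes nearest to Itgav were Gtf2f1 (a general transcription factor subunit, distance 0.19), Mknk2 (a kinase downstream of MAP kinases, 0.21) and Ptbp1 (a splicing regulator, 0.22). Nearest to Itga5 were Spata13 (a guanine nucleotide exchange factor, 0.26), Slc1a5 (a glutamine transporter, 0.30) and Stat2 (a transcription factor of interferon signalling, 0.30). These genes rose by 1.83 to 2.07 on the log2 scale. With 2 groups of 3 libraries the likeness is mostly a likeness in the size of the change.

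The other integrin subunit genes were scarce. Of 17 further alpha and beta genes, 4 had enough reads to be tested, 1 was higher and 1 lower. Itga2b, the platelet and megakaryocyte alpha chain, rose 5.08-fold on the TMM scale (2.35 ± 0.36, edgeR adjusted p = 1.17e-05). Its raw reads, not scaled for depth, were 19 and 67. Itgb8, whose pair with Itgav activates latent TGF-beta, fell 1.58-fold on the TMM scale (-0.66 ± 0.22, edgeR adjusted p = 0.0192), with 167 and 72 raw reads. The Itgb8 call was lost with DESeq2 (adjusted p = 0.0865), with the expression trend removed (0.0714, limma) and in edgeR without FTY720_LPS replicate 1 (0.0769) or 2 (0.0758). Itgb3, the other classical partner of Itgav, had 10 and 11 reads over 3 libraries each and was not tested.

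Among 17 tested activators and adaptors 5 were higher and 3 lower (median 0.07), beside 23.3% and 22.7% of all 10124 genes tested. The same shares of all genes stand beside the counts of each list that follows. Vcl, vinculin, which links talin to actin, rose 3.07-fold (1.62 ± 0.12), and Rap1b, a small GTPase that recruits talin, rose 2.77-fold (1.47 ± 0.13). Fermt3, kindlin-3, the kindlin of blood cells that switches on Itgb2 integrins, fell 2.55-fold from 62.7 ± 4.26 to 24.8 ± 4.89 CPM (-1.35 ± 0.16, edgeR adjusted p = 3.85e-07). These 3 kept their call and direction in all 14 alternatives. Of 6 tested inhibitors of integrin activation 1 was higher and 3 lower (median -0.33). Dok1, which competes with talin for the beta tail, fell 2.81-fold (-1.49 ± 0.22), while the Rap1 inactivators Sipa1 (-0.57 ± 0.20) and Rasa3 (-0.44 ± 0.17) fell by less. Sipa1 lost its call in 5 alternatives and Rasa3 in 6, among them DESeq2 (adjusted p = 0.0685 and 0.109) and, for both, edgeR without FTY720 replicate 1 (0.105 and 0.126), FTY720 replicate 2 (0.0737 and 0.117) or FTY720_LPS replicate 2 (0.151 and 0.131). Sipa1 lost it too without FTY720_LPS replicate 3 (0.111), and Rasa3 without FTY720_LPS replicate 1 (0.216).

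The signalling proteins split, with 4 of 12 tested higher and 3 lower (median 0.00). Syk, a kinase downstream of integrins and immunoreceptors, fell 2.27-fold (-1.19 ± 0.15), and Ptk2b (Pyk2), the focal adhesion kinase relative of blood cells, fell 2.36-fold (-1.24 ± 0.19).

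Of 29 ligand genes, 16 were tested, 6 were higher and 1 lower (median 0.27). Icam1, the ligand of Itgal and Itgam, rose 8.60-fold, from 26.1 ± 2.43 to 224 ± 58.4 CPM (3.10 ± 0.17, edgeR adjusted p = 4.17e-13). Spp1, osteopontin, a ligand of Itgav integrins, rose 2.12-fold from 2280 ± 444 CPM, but not past the threshold with total gene reads alone (adjusted p = 0.0515) or with the expression trend removed (0.117, limma). Emilin1, a matrix ligand of Itga4 with Itgb1, fell 2.33-fold on the TMM scale (-1.22 ± 0.36), with 89 and 26 raw reads. The Emilin1 call was lost without FTY720_LPS replicate 1 (adjusted p = 0.0618, edgeR) or 2 (0.0717). Vcam1, the ligand of Itga4, had 9 and 11 reads and Icam2 had 1 and 1, and neither was tested.

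Membrane partners of integrins rose in 9 of 10 members of their list and fell in 0 (median 0.70). Plaur, the urokinase receptor, which associates with Itgam and other integrins, rose 16.1-fold, from 24.6 ± 0.579 to 399 ± 31.5 CPM (4.01 ± 0.13, edgeR adjusted p = 1.68e-17). Cd37, a tetraspanin of white blood cells, rose 1.97-fold, and Slc3a2, the CD98 heavy chain that binds beta tails, 1.83-fold. With total gene reads alone 1 of the 10 was called higher, and with the expression trend removed 3. Among 8 chaperone, cleavage and traffic genes 1 was higher and 2 lower (median -0.06). Hsp90b1 (gp96), a chaperone that integrin chains need to fold, rose 1.49-fold (0.57 ± 0.11), Snx17, which returns Itgb1 from endosomes to the surface, fell 1.60-fold (-0.68 ± 0.16), and Furin, a protease that cleaves several alpha chains, fell 1.30-fold (-0.38 ± 0.14). The Hsp90b1 call ended with total gene reads alone (adjusted p = 0.499), without the rRNA-like genes (0.303) and with the expression trend removed (0.751, limma). The Furin call ended with DESeq2 (adjusted p = 0.0674), with total gene reads alone (0.0584) and in edgeR without FTY720 replicate 2 (0.24) or without FTY720_LPS replicate 1 (0.145), 2 (0.0621) or 3 (0.0967).

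**Figure D4:**
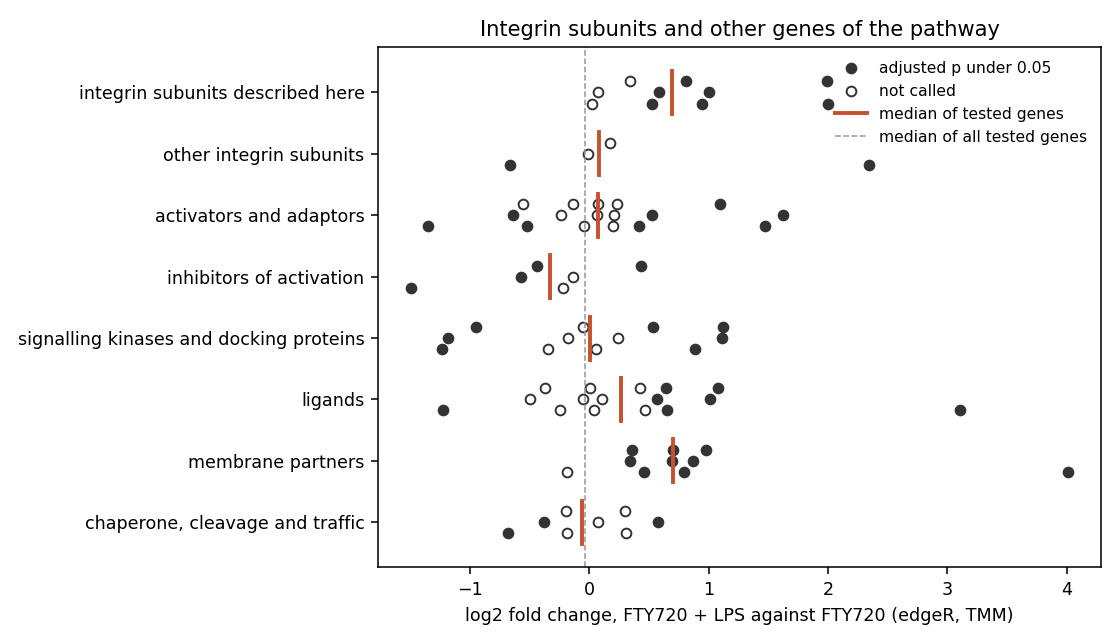
Log2 fold change with LPS (edgeR, TMM factors) of the subunits described here and of every tested gene of 7 other lists; filled points are called at adjusted p under 0.05, red bars give list medians and the dashed line the median of all tested genes. The subunits and the membrane partners have medians of 0.70, and only the membrane partner Cd151 lies below 0 among these 2 lists (-0.18, not called); with other scalings the median of all genes moved by up to -0.44, and the dashed line and the lists with it.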

How the data were processed

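Each library has a deposited table of raw counts, made by the authors, for both strands together and for each strand alone. Tools listed in the submitters' processing notes are STAR 2.5.1, Trimmomatic 0.33, CASAVA 1.8.2 and DESeq2, with the build mm10. For the gene annotation and settings, nothing is given in the sources used here. The deposited counts of the strand holding 98.4% to 98.9% of gene reads were used. Rows that name no gene (74.5% to 79.2% of listed reads) were left out. The 10 subunits and the gene lists were chosen with earlier results of these data known.

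All genes were fitted with edgeR 4.0.16 (R 4.3.3; quasi-likelihood test, TMM factors, filterByExpr with minimum count 10), which tested 10124 of 24411 genes, and p-values were adjusted over all of them by Benjamini-Hochberg with a threshold of 0.05. The standard error is the absolute log2 fold change over the root of F. The fit was tested on simulated data with 200 changed genes, as many up as down, and libraries that differed in read total alone. The choice of scaling was not tested by it. Alternatives were DESeq2 1.42.0, 3 other scalings, no filter, unstranded counts, a loess expression trend removed (limma 3.58.1), a replicate block and each library left out. Named genes were all subunits, the most changed called genes of each list (at most 3, from a mean log2 CPM of 1 upward), the most abundant or absent markers of other cell types, and the 3 nearest profiles; Itgb3, Icam2, Vcam1, Cd151, the called markers of other cell types and the genes under other observations were named after their values were seen. Exon lengths came from GENCODE M21 (GRCm38), promoter windows from RefSeq (GRCm38.p6). A count of 0 allows 3 reads (0.868 to 1.23 CPM before TMM factors), which covers counting error only. Some genes that the naming rule picks are not reported here.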

Additional observations from a re-analysis of the deposited data

Results flagged for a closer look

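Reads on the opposite strand were not part of the comparisons. They were more numerous with LPS than with FTY720 alone at Itgam, with 20 reads over the 3 LPS libraries against 6 over the 3 FTY720 libraries (1.53% and 0.560% of reads on both strands). At Itgax they numbered 10 against 5 (4.27% and 3.01%). Per library they ran from 0 to 8 at Itgam and from 1 to 5 at Itgax, and the groups met at 4 reads for Itgam and at 2 for Itgax. Neither difference was tested.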

How the results depend on the processing

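Itga5 and Itgav kept their direction and call in all 14 alternatives, Itgam, Itgax and Itga6 in 13, and Itgb1 and Itgb2 in 11. With total gene reads alone 2 members were called higher, and Itgam (0.50, adjusted p = 0.171), Itgax (0.69), Itga6 (0.60), Itgb1 (0.22) and Itgb2 (0.23) lost their call, while Itgal (-0.24), Itga4 (-0.0047) and Itgb5 (-0.24) turned in sign. Without the rRNA-like genes Itgb1 (0.14) and Itgb2 (0.072) lost their call, Itgal (-0.43), Itga4 (-0.11) and Itgb5 (-0.38) turned, and 1 member was called lower. With the expression trend removed Itgb2 (0.048) lost its call, Itgal (-0.072), Itgb1 (-0.17) and Itgb5 (-0.52) turned, and 1 member was called lower. Upper-quartile factors turned Itgal (-0.11) and Itgb5 (-0.062), and unstranded counts turned Itgal (-0.00067). The cause of these shifts was not tested. Leaving out 1 library moved Itgal between -0.24 and 0.31, Itga4 between 0.19 and 0.45 and Itgb5 between -0.017 and 0.17. Uncalled throughout, Parva turned in sign with the trend removed (0.089) and without FTY720 replicate 2 (0.20) or FTY720_LPS replicate 2 (0.021) or 3 (0.14), ranging from -0.27 to 0.20 with 1 library left out, and Parvg with the total-read scalings (-0.13 and -0.25).

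Of the pathway genes, 27 were higher and 13 lower, beside 23.3% and 22.7% of all 10124 genes tested. The genes tested were 4 other integrin subunits, 17 activators and adaptors, 6 inhibitors and 12 signalling proteins. To these came 16 ligands, 10 membrane partners and 8 chaperone, cleavage and traffic genes. Of the 27 higher, 9 were membrane partners. Higher calls over all pathway lists numbered 8 with total gene reads alone, 13 without the rRNA-like genes and 15 with the trend removed. Lower calls numbered 28 without the rRNA-like genes, 8 with DESeq2 and 7 to 16 with 1 library left out, the fewest without FTY720_LPS replicate 2. Over all genes, 2362 were higher and 2297 lower; 766 were higher with total gene reads alone, and 1074 were higher and 4979 lower without the rRNA-like genes. DESeq2 called 2036 higher and 1529 lower. With replicate number as a block, 7 members were called higher, Itga5 stood at 2.00 and Itgav at 1.99; Rasa3 lost its call (adjusted p = 0.056), and over all genes 2292 were higher and 2171 lower. No pairing by replicate number was seen: deviations of same-numbered libraries correlated at -0.022, -0.026 and -0.073, and no library correlated best with its own number. Since the deviations were taken within groups of 3 libraries, such values cannot exclude a shared culture or day.

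With coding length, 5 of 10 members kept their rank in level with FTY720 and 2 with LPS; with the longest transcript 2 did with LPS; and with 1 LPS library left out, 6 to 10 did, the fewest without FTY720_LPS replicate 1. Without scaling by length, the shares of alpha chains with FTY720 were 65.2% for Itgam, 25.0% for Itgal, 17.99% for Itga4, 14.1% for Itga5 and 34.3% for Itgav, and with LPS 16.1% for Itgal, 8.14% for Itga4, 20.2% for Itga5, 23.2% for Itga6 and 48.5% for Itgav. With 3 libraries a group and 161 reads for the scarcest member, changes inside the printed intervals could not be resolved.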

Other observations

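These genes lie outside the naming rule and were picked after their values were seen. Of the genes for Ilk, a scaffold on beta tails, and its partners, Lims1 (PINCH) was higher (1.10 ± 0.13, SE, n = 3 per group), while Ilk (-0.52 ± 0.13) and Parvb (-0.63 ± 0.21) were lower in edgeR, the Parvb call being lost with DESeq2 (adjusted p = 0.0663) and in edgeR without FTY720 replicate 2 (0.0729) or FTY720_LPS replicate 2 (0.105). The parvins Parva (-0.04, adjusted p = 0.914, edgeR) and Parvg (0.20, adjusted p = 0.3296), the latter the most abundant parvin (34.5 and 39.9 CPM), were not called. Lyn, a Src-family kinase, was 2.16-fold higher (81.0 ± 6.18 and 175 ± 6.05 CPM, SD), and Vav1, an exchange factor downstream of Syk, 1.93-fold lower (136 ± 8.92 and 70.3 ± 4.98 CPM). C3, whose cleaved form is the ligand of Itgam and Itgax with Itgb2, was 2.02-fold higher (61.7 ± 5.93 and 124 ± 6.48 CPM). The calls of Lims1, Ilk, Lyn, Vav1 and C3 kept their direction in all 14 alternatives. Rasgrp2, an exchange factor for Rap1, had 1 read over the FTY720 libraries and 25 over the LPS libraries and was too scarce to be tested.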
